A study of Nannospalax ehrenbergi and Mus musculus with 25 samples.

Results

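The matricellular genes around Postn were followed through RNA-seq libraries of neck muscle and tumor tissue from the blind mole rat Spalax and from the house mouse. Matricellular proteins are secreted into the extracellular matrix (ECM), where they bind collagens and cell surface receptors and change how cells attach, move and signal without being its main load-bearing fibers. They are low in most resting adult tissues and are known to rise in wound repair, fibrosis and the stroma of tumors. The 10 genes were chosen by name from both count tables, with Postn at their head because earlier results of these data had singled out its rise from uninjected tissue to granuloma. That contrast is therefore given as a description. In the comparisons that use granuloma tissue Postn has no p-value and is left out of the counts of called members, unless named as included. Counts of members without overlap there hold Postn, and nothing is read from them. The fits ran over all genes, Postn among them. All 10 are listed in both tables, among 27988 genes of Spalax, 47593 of mouse and 14769 that the tables share by symbol.

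Their roles differ. Postn (periostin) and Sparc (osteonectin) bind collagen and are made by matrix-producing fibroblasts. Tnc and Tnn encode tenascins, and Fn1 encodes fibronectin, whose fibrils serve as a scaffold for other matrix proteins. Thbs1 and Thbs2 encode thrombospondins that restrain blood vessel growth, while Thbs4 encodes a thrombospondin of muscle and tendon. Spp1 (osteopontin) is a phosphoprotein of bone, macrophages and many tumors. Wisp1, named Ccn4 in newer annotations, belongs to the CCN family and is induced by Wnt signaling.

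The 25 libraries came from animals that were untreated or had received a single subcutaneous injection of the carcinogen 3-methylcholanthrene (3MCA) in the left flank of the neck, at 1 mg in Spalax and 200 µg in mice. Spalax were caught in the wild, so that their ages could only be estimated, and the mice were young adults of the strain C57BL/6, all male. Spalax gave 4 untreated controls (all female), 4 tolerant animals that grew no tumor by 18 or 30 months (3 male and 1 female, biopsied on the injected side), 2 animals with a benign granuloma removed at 14 and 16 months (both female) and 2 with a fibrosarcoma removed at 18 months (female) and 30 months (male). Each tumor-bearing animal gave 1 library of the part of the tumor nearest the body on the injected side (IS) and 1 of muscle from the uninjected side (UIS). Controls were neck muscle, which the labels place on the uninjected side. Mice gave 3 untreated controls and the UIS and IS of 3 animals with a fibrosarcoma removed at 11 to 14 weeks.

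Libraries held between 17025447 and 23386729 reads counted on the listed genes in Spalax and between 22143060 and 31179183 in mouse. The values are normalised read counts, that is, reads divided by 1 size factor per library, so 1 read was worth 0.517 to 1.44. The label of muscle was checked with the summed level of its marker genes, which lay between 754146 and 4074113 in all libraries of controls, tolerant animals and UIS, and between 98.7 and 48195 in the IS. The sum of fibroblast markers moved the other way, from 5302 to 63450 in muscle, with 214456 in the library of tolerant animal 2251, up to 121468 to 1898792 in the IS. Genes with many reads weigh most in such a sum. The median log2 difference of the 9 fibroblast markers, IS minus UIS, was 3.42 in granuloma, 3.17 in mouse and 0.67 in Spalax fibrosarcoma. Tolerant 2251 stood apart from its group and is given apart below. The sequencing name of granuloma UIS 976 carries the number of another animal, so the comparison of UIS with control is also given without it. Folds within animal 976 rest on its label. All control and tolerant libraries had dual indexes and all libraries of tumor-bearing animals single ones, so indexing and tumor bearing cannot be told apart. Fewer cells of a type and less RNA per cell cannot be told apart in bulk tissue either.

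A feature shared by several of the proteins is the integrin-binding motif arginine-glycine-aspartate (RGD), through which osteopontin and fibronectin attach cells. In the longest complete coding sequence of the mouse (GENCODE vM21, build GRCm38), 6 of the 10 genes held at least 1 in-frame RGD, namely Spp1, Fn1, Tnn, Thbs1, Thbs2 and Thbs4. Across 21562 mouse genes 1563 did, or 7.25%, without regard to protein length. Postn, Tnc, Sparc and Wisp1 held none in these sequences. The stretches below lie in coding exons and are written along the sense strand, with the RGD codons in capitals and codons counted from the start codon. They show which members carry the motif and how its 9 bases are spelled.
Spp1, chr5:104435118-104441050, plus strand, codon 145: cccaacggcCGAGGTGATagcttggct
Fn1, chr1:71585520-71653200, minus strand, codon 1614: gtcactggcCGTGGGGACagtccagca
Thbs1, chr2:118111876-118127133, plus strand, codon 927: ggtgatggcCGAGGTGACgcctgcaaa
Thbs2, chr17:14665500-14694235, minus strand, codon 928: ggtgacggcCGAGGTGACatttgtaaa
Thbs4, chr13:92751590-92794818, minus strand, codon 564: ggggatgggAGAGGAGACgcctgtgat
Tnn, chr1:160085029-160153580, minus strand, codon 427: gtgcccatcCGAGGTGATctggaggga
The coordinates are those of the whole gene. The motifs of Thbs1 and Thbs2 are both spelled CGAGGTGAC. Fn1 and Thbs4 each held a second RGD, at codons 2181 and 138.

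In untreated and tumor-bearing muscle the genes as a set took a small part of the reads counted on listed genes. In 11 Spalax muscle libraries, leaving out tolerant 2251, their summed share ran from 0.0187% to 0.102%, and in the 6 mouse muscle libraries from 0.0154% to 0.155%. The granuloma libraries gave 3.87% (animal 600) and 2.47% (animal 976), and the Spalax fibrosarcomas 0.540% (2240) and 0.785% (2230). Mouse fibrosarcomas lay between 0.814% and 1.60%. Tolerant 2251, a biopsy of injected muscle without a tumor, gave 0.940%, above both Spalax fibrosarcomas. As a share of reads, which is not a level per transcript since gene lengths differ, Sparc made up 11.0% to 75.2% of the members' reads and Fn1 4.20% to 50.5%. Postn made up 0.481% to 37.1% and Wisp1 at most 2.01%.

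**Figure D1:**
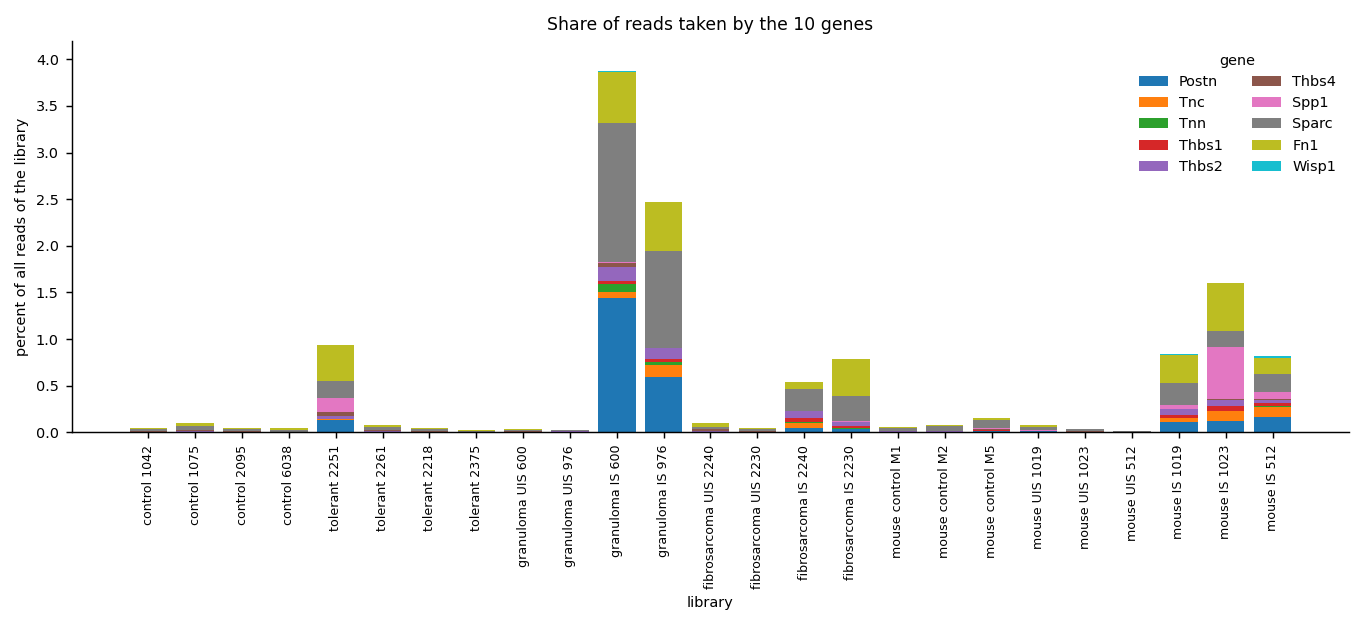
Percent of the reads of a library counted on listed genes (y axis) that fell on each of the 10 genes, stacked by colour, in the 25 libraries (x axis, by group and animal number). The granuloma libraries stand highest at 3.87% and 2.47%, and tolerant 2251 at 0.940% stands above the other 3 tolerant libraries.

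In untreated Spalax muscle Tnn and Wisp1 were near the level of single reads. Sparc lay at 6672 ± 2582 normalised counts (SD, n = 4), Fn1 at 3839 ± 1747 and Thbs4 at 1798 ± 1102. Postn ranged over 6.32-fold, from 102 and 106 to 371 and 642. Tnn lay between 3.60 and 12.5 and Wisp1 between 0 and 3.31. Control 1075 had the highest value of its group in 7 of the 10 genes. In mouse control muscle Postn was 1017, 1361 and 3276 and Sparc 6577, 15166 and 20664, with M5 the highest library in all members but Tnn. Levels of the 2 species are not compared, since the tables were normalised separately.

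The first comparison set UIS muscle of tumor-bearing Spalax against muscle of untreated animals. Tests used limma on log2(value + 1), over genes that reached 10 in a number of libraries equal to the size of the smaller group. A gene was called where its Benjamini-Hochberg adjusted p was 0.05 or less. Of the 9 members that passed the filter (all but Wisp1) 0 were called, beside 0% of 13909 genes, and 0 members and 2315 genes had an unadjusted p under 0.05. edgeR and DESeq2 on the recovered reads also called 0 members, beside 0% and 3.74% of all genes. At an unadjusted p under 0.05 edgeR had 2 members and DESeq2 3. Sparc, at 1946 to 5491 in the UIS against 4081 to 9499 in control, differed by -0.80 (SE 0.37, limma adjusted p 0.316). Tnn differed by 1.43 (SE 0.72, limma adjusted p 0.341), with 11.8 and 74.8 in granuloma UIS and 7.11 and 31.5 in fibrosarcoma UIS.
In all 9 tested members the values of both groups overlapped, while 12.7% of all genes did not overlap. Postn was 72.4 and 31.8 in granuloma UIS, the lowest muscle values of the species, and 603 and 267 in fibrosarcoma UIS. Without granuloma UIS 976 the difference of Postn went from -0.69 to 0.01 and that of Fn1 from -0.40 to 0.10. That of Sparc became -0.51 and that of Tnn 1.70. Of the 9, limma called 0 without this library, beside 0 of 14127 genes. An unadjusted p under 0.05 was then found for 3 members and 2432 genes.

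Tolerant animals were compared with controls to ask what injected muscle without a tumor shows. None of the 8 members tested by limma (without Tnn and Wisp1, which fell under the filter) was called, beside 0% of 14020 genes, and 0 members and 733 genes had an unadjusted p under 0.05. edgeR called 0 members as well, with 4 at an unadjusted p under 0.05, and gave larger differences than limma (Postn 4.27 against 1.68 and Spp1 5.95 against 1.85). DESeq2 gave a p for Thbs1, Thbs4 and Sparc alone and called 0 of these 3, beside 0.428% of all genes. The library means were nonetheless far apart, because tolerant 2251 was highest in all 10 members. Its Postn value was 20990, against 1281, 118 and 85.8 in the other 3. Spp1 reached 23083 there and 56.9 to 151 in the others, and Fn1 61759 against 956 to 5163.
Sparc in 2251 was 28549 and Tnc 735, each above all control and UIS libraries. The macrophage and fibroblast markers of this library moved with them, since their summed levels were 14700 and 214456, against 985 to 3507 and 8901 to 53300 in the other tolerant libraries. The sum covers the 7 of 9 macrophage markers and 9 of 9 fibroblast markers that the table holds, and none was at 0 in all tolerant libraries. Muscle markers summed to 764303 there and to 1672968 to 2615127 in the others. The part of these cells in the result was not tested. With 2251 left out, the difference of Spp1 between tolerant and control went from 1.85 to -0.15, that of Postn from 1.68 to 0.06 and that of Thbs2 from 1.43 to 0.72 (SE 0.66 with all libraries, limma adjusted p 0.923 with and 0.877 without it). Tolerant 2375 was lowest of its group in 8 of 10 members.

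**Figure D2:**
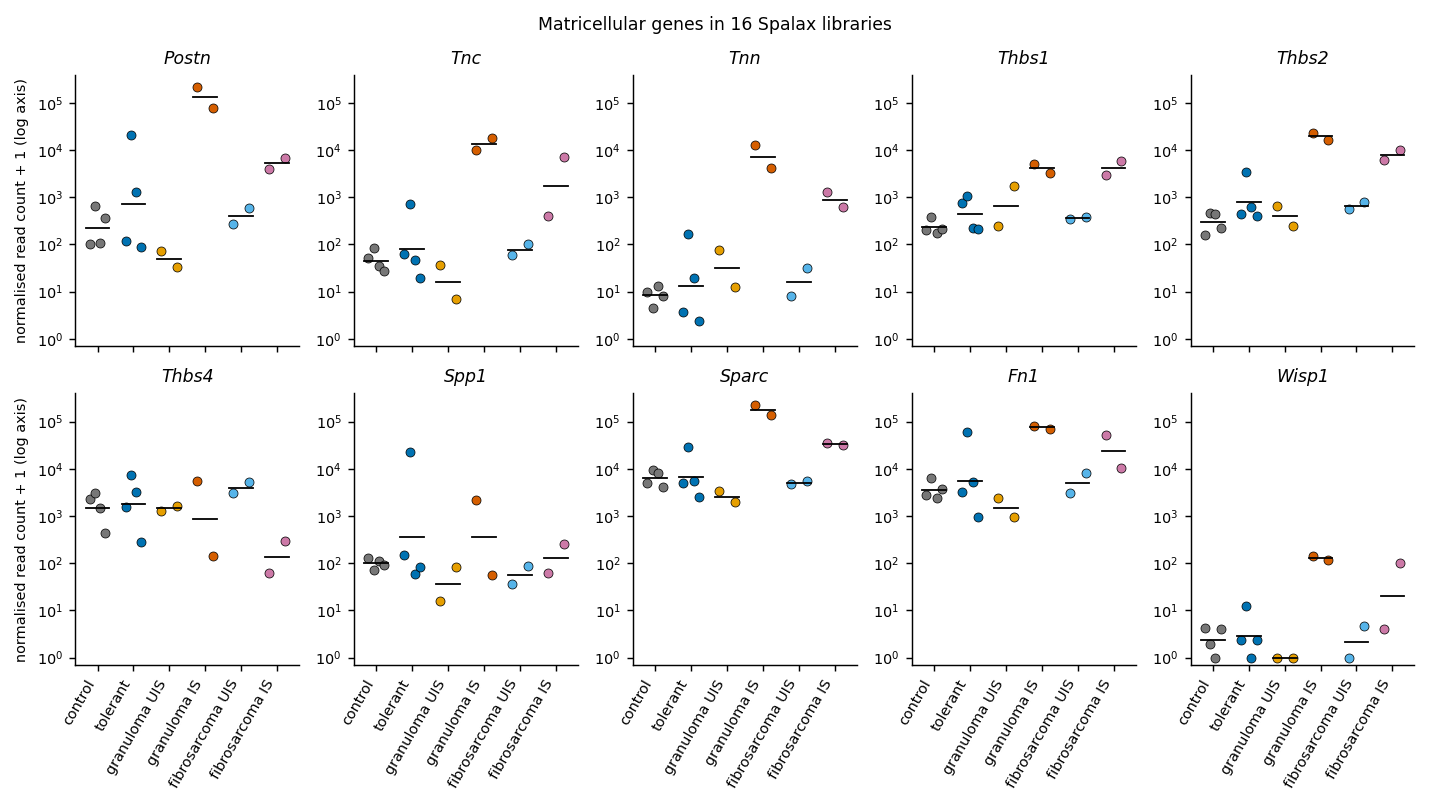
Normalised read count plus 1 (y axis, log scale) of the 10 genes in 16 Spalax libraries by group (x axis). Each point is 1 library and each bar the mean of the logs. In Postn the granuloma IS points, at 79754 and 214855, lie above all others, and tolerant 2251 is the high blue point of each panel.

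Granuloma tissue held the highest levels of most of these genes in Spalax. Postn was 214855 in the IS of animal 600 and 79754 in that of 976, against 72.4 and 31.8 in the UIS of the same animals. Within an animal this was 2969-fold and 2508-fold. The rise of Postn is what put it at the head of the set, so its size is no result about the set.
The other collagen-binding and scaffold proteins followed the same order of libraries. Sparc was 223079 and 139207 in the IS against 3361 and 1946 in the UIS, a rise of 66.4-fold and 71.5-fold within animals 600 and 976. Fn1 was 82333 and 70521 against 2349 and 955. Both granulomas were thus close to each other in Fn1, at 1.17-fold, and further apart in Postn, at 2.69-fold.
Among the tenascins Tnc was 10125 and 17760 in the IS against 36.2 and 5.89 in the UIS. Tnn, at most 12.5 in control muscle, was 12679 and 4179 against 74.8 and 11.8. Wisp1 had 0 reads in both granuloma UIS libraries and 143 and 114 normalised counts in the IS, at least 39.5-fold and 32.1-fold higher against a floor of 3 reads per library. Floors and counts cover counting error only.
The thrombospondins did not move as 1 group. Thbs2 was 23054 and 16613 in the IS against 668 and 241 in the UIS. Thbs1 was 5162 and 3355 against 247 and 1712, a rise of 20.9-fold in animal 600 and 1.96-fold in 976. Thbs4 was 5469 in the IS of 600, above its UIS value of 1296, and 140 in that of 976, below its UIS value of 1619.
Spp1 split the animals in the same way, with 2185 against 14.5 in animal 600 and 56.2 against 81.3 in animal 976. In 8 of the 10 members both IS libraries lay above both UIS libraries, beside 35% of all genes tested. Nothing is read from that count, as the members were picked with this contrast known.

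Fibrosarcoma tissue of Spalax was compared with the UIS of the same 2 animals to ask which of these genes rise in a malignant tumor. Of the 9 members that passed the filter, limma called 5 higher in the IS, beside 17.4% of all genes, and 1 lower, beside 19% of all genes. Tnn met the filter in the IS alone, where it was high, with 1 UIS library at 10 or more. It is therefore given as a description. Without it 4 of 8 were called higher. The members were chosen with earlier results of these data known, so these counts are no independent support.
Postn was 6841 (animal 2240) and 4003 (2230) in the IS against 603 and 267 in the UIS, a difference of 3.70 on the log2 scale (SE 0.51, limma adjusted p 0.0102). Both tumors exceeded both muscles, as they did in 37.9% of all genes tested. Within an animal Postn rose 11.4-fold and 15.0-fold. In 1 model over all 16 Spalax libraries, which share 1 estimate of spread, its adjusted p was 0.129.
Thbs1 and Thbs2, the thrombospondins that restrain vessel growth, rose together. Thbs1 went from 383 and 350 to 5877 and 2918 (3.50, SE 0.40, limma adjusted p 0.00694). Thbs2 went from 786 and 559 to 10047 and 6204 (3.57, SE 0.35, limma adjusted p 0.00543).
Sparc rose from 5491 and 4689 to 31300 and 35379 (2.71, SE 0.28, limma adjusted p 0.00586). Tnn was 31.5 and 7.11 in the UIS and 627 and 1268 in the IS, a difference of 5.78. In both genes the tumors lay above the muscles, again beside 37.9% of all genes tested.
Thbs4 went down. It was 5337 and 3010 in the UIS and 293 and 60.6 in the IS, a difference of -4.90 (SE 0.83, limma adjusted p 0.0159), or 18.2-fold and 49.7-fold lower in the tumor of the same animal. Muscle markers fell with it, all 7 of 7 tested, by a median of 14.73 on the log2 scale. Of the tendon markers 2 of 4 tested were called lower and 0 higher. Their summed level went from 1612 to 389 in animal 2240 and from 1844 up to 4785 in 2230, the animal in which Thbs4 fell more. The part of muscle and tendon cells in the fall of Thbs4 was not tested.
The remaining members differed between the tumors. Tnc was 7266 in 2240 and 403 in 2230, against 99.4 and 59.7 in the UIS (4.46, SE 1.43, limma adjusted p 0.0716). With the animal as a replicate block, the fit that compares each tumor with its own muscle, its adjusted p was 0.0198. Fn1 was highest in the other tumor, at 51403 in 2230 and 10570 in 2240, against 3001 and 7983 in the UIS (2.25, SE 0.93, limma adjusted p 0.124). DESeq2 called both Tnc (adjusted p 2.48e-06) and Fn1 (adjusted p 0.00978), beside 43.3% of all genes. edgeR called neither, beside 34.7% of all genes.
Spp1, at 251 and 62.4 against 86.1 and 35.5, was not called (1.16, SE 0.88, limma adjusted p 0.348). Wisp1 was not tested. It was 102 in 2240, where the UIS had 3.64, and 3.00 in 2230, where the UIS had 0. With either UIS library left out 0 genes were called, and with either IS library left out 8 members were, beside 51.4% (without IS 2240) and 47.0% (without IS 2230) of all genes. The spread in these fits comes from the group that kept both libraries, the tumors in the first case and the muscles in the second.

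The granulomas and fibrosarcomas of Spalax were set side by side next. Of the 9 members other than Postn, limma called 0, beside 0% of 14562 genes, while 3 of them and 591 genes had an unadjusted p under 0.05. edgeR called 0 and DESeq2 called Sparc and Tnn, beside 1.05% of all genes. In 7 of the 10 members both fibrosarcomas lay below both granulomas, beside 14.7% of all genes. Nothing is read from that count, since the 7 include Postn and Wisp1, which passed the filter only through the granulomas, and since the granuloma libraries were known when the members were picked.
Sparc was 139207 and 223079 in granuloma and 31300 and 35379 in fibrosarcoma (-2.40, SE 0.73, limma adjusted p 1.00 and DESeq2 adjusted p 8.19e-05). Tnn was 4179 and 12679 against 627 and 1268 (-3.03, SE 0.67, limma adjusted p 1.00 and DESeq2 adjusted p 0.00253). The p-values of Sparc and Tnn also rest on granuloma libraries that were known when the members were picked, so nothing is read from them. Postn, given as a description, was 79754 and 214855 against 4003 and 6841. Thbs1 hardly differed in its means, with 3355 and 5162 in granuloma and 2918 and 5877 in fibrosarcoma, a difference of -0.01 with a 95% interval from -1.27 to 1.25.

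Tolerant muscle was also compared with the tumor tissue of both kinds. Leaving Postn aside, 9 members were tested and 6 of them were called higher in the IS, beside 22.4% of all genes. Nothing is read from that count, as the granuloma libraries are 2 of the 4 IS libraries and were known when the members were picked. Tnn, 1 of the 6, met the filter in the IS alone, where it was high, with 2 tolerant libraries at 10 or more. The differences were 3.23 for Thbs1 (SE 0.55, limma adjusted p 0.00175), 3.97 for Thbs2 (SE 0.69, 0.00207), 3.51 for Sparc (SE 0.87, 0.0106) and 5.89 for Tnc (SE 1.35, 0.0073). They were 4.16 for Wisp1 (SE 1.23, 0.0223) and, as a description, 7.62 for Tnn. Wisp1 reached 10 in 3 IS libraries and in 1 tolerant library, at 11.3, so it passed the filter mainly through the tumors. The limit on the count holds for the p-values of this comparison too, which are no independent support.
Thbs1, Thbs2, Sparc and Tnc were called whichever 1 of the 8 libraries was left out, and Wisp1 in 2 of those 8 fits. Fn1 (2.91, SE 1.19, limma adjusted p 0.0700) was not called, and without tolerant 2251 it differed by 4.07 at an adjusted p of 0.00360. Thbs4 differed by -2.39 (SE 1.40, limma adjusted p 0.187), and without granuloma IS 600 by -3.72 at an adjusted p of 0.0215. Fn1 was also called without fibrosarcoma IS 2240.
Spp1 changed direction with a single library. Its difference was -0.76 (SE 1.92, limma adjusted p 0.765) with all libraries and 1.24 (adjusted p 0.406) without tolerant 2251. The value of 23083 in that library was above all 4 Spalax tumors, which held between 56.2 and 2185.

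Over the Spalax groups the order of Postn, by median, ran from granuloma UIS (31.8 to 72.4) to control (102 to 642), fibrosarcoma UIS (267 to 603), tolerant (85.8 to 20990), fibrosarcoma IS (4003 to 6841) and granuloma IS (79754 to 214855). Control and fibrosarcoma UIS overlapped, and the tolerant range reached over control, fibrosarcoma UIS and fibrosarcoma IS. Granuloma UIS lay below control and granuloma IS above fibrosarcoma IS without overlap. The 5 genes whose centred log2 profile over the 16 libraries was nearest that of Postn were Col1a1 and Col1a2 (the chains of collagen I), Ptn, Tnc and Col11a1, with root mean square differences of 1.17 for Col1a1, 1.20 for Ptn, 1.32 for Col1a2 and 1.41 for Tnc and Col11a1 on the log2 scale, among 13255 genes. Of the members, Tnc was thus nearest and Thbs4 farthest, at 4.30 and rank 10785. The libraries share depth and tissue makeup, and the measure is a description.

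In mouse, muscle of the uninjected side was first compared with control. Of 9 members tested, limma called 0, beside 0% of 14792 genes, and 1 member and 1621 genes had an unadjusted p under 0.05. That member was Thbs4, at 1162, 1341 and 3763 in control and 148, 271 and 390 in the UIS (-2.85, SE 0.53, limma adjusted p 0.293). The groups did not overlap, as in 21.2% of all genes tested. DESeq2 called Thbs4 (adjusted p 0.000203) beside 2.31% of all genes, while edgeR called 0 members. Tendon markers moved with it, from 661 to 2986 in control to 76.3 to 290 in the UIS, for 5 of 5 markers in the table, and fat markers from 86872 to 130809 to 7057 to 75734. Their part in the result was not tested.
The 3 UIS libraries were uneven. Animal 1019 was highest in 8 of 10 members and 512 lowest in 8. Postn was 2198 in 1019, 808 in 1023 and 63.3 in 512, and Wisp1 212 against 7.22 and 10.1.

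Mouse fibrosarcoma, which arose within weeks, was compared with the UIS of the same 3 mice. Of the 10 members, limma called 9 higher in the IS, beside 22.8% of all genes, and 0 lower. Tnn met the filter in the IS alone, with 0 UIS libraries at 10 or more, and thus had to differ. Wisp1 also met it in the IS alone, though 2 of 3 UIS libraries reached 10. Both are given as a description. Without them 7 of 8 were called higher. Here too the members were chosen with earlier results of these data known, so the counts are no independent support. In 9 of the 10 members, all but Thbs4, the 3 tumors lay above the 3 UIS libraries, beside 31.1% of all genes tested. The 9 include Tnn and Wisp1.
Postn was 13498, 17040 and 21843 in the IS against 2198, 808 and 63.3 in the UIS (5.14, SE 1.21, limma adjusted p 0.0157). The tumors lay within 1.62-fold of each other and the muscles spread over 34.7-fold. Without the tumor of 1023 its adjusted p was 0.0511.
Sparc also hardly varied among tumors, at 24804, 27267 and 29937 against 3897 to 10662 in the UIS (2.10, SE 0.42, limma adjusted p 0.00913). Fn1 was 22975, 37912 and 71584 against 217, 579 and 4127 (5.62, SE 1.06, limma adjusted p 0.00796).
The tenascins and Wisp1 rose from low levels. Tnc was 5909, 14650 and 15540 against 23.0, 77.3 and 586 (6.74, SE 1.12, limma adjusted p 0.00546). Tnn was 41.9, 326 and 543 against 1.44 to 6.19, a difference of 5.40. Wisp1 was 661, 1575 and 2239 against 7.22, 10.1 and 212, a difference of 5.63.
In each of these 3 genes the tumors lay above the muscles. Thbs1 was 4280, 4621 and 7953 against 461 to 665 (3.28, SE 0.31, limma adjusted p 0.00142). Thbs2 was 5085, 7811 and 8394 against 183 to 1100 (4.15, SE 0.65, limma adjusted p 0.00465).
Spp1 showed the widest spread among the tumors, 15.3-fold, with 5147 in 1019, 78796 in 1023 and 9359 in 512, against 906, 129 and 54.7 in the UIS (6.38, SE 1.33, limma adjusted p 0.0106). In the tumor of 1023 Spp1 took 34.9% of the members' reads. Its count is uncertain, since 18.8% of its exon bases lie under another mouse gene on the same strand. Macrophage markers summed to 48650, 28152 and 5905 in the tumors of 1019, 1023 and 512, and to 880 to 7108 in the UIS, for 8 of 9 markers in the table. Their part was not tested.
Thbs4 was 215, 1849 and 1879 in the tumors of 1019, 1023 and 512 against 148, 390 and 271 in the UIS (1.86, SE 0.89, limma adjusted p 0.133). The groups overlapped. With the animal as a replicate block its adjusted p was 0.0381, and without the tumor of 1019 in the fit without a block 0.0122. DESeq2 called all 10 members, Thbs4 included, beside 53.7% of all genes, and edgeR called 9, beside 43.2%. Muscle markers summed to 98.7, 18621 and 48195 in the same tumors, so the tumor with the least Thbs4 also held the least of them. Their part was not tested.
Per kilobase of exon, the only scale on which genes are compared with each other, the mouse tumors held Spp1 at a mean of 18872 normalised counts (3123 to 47813), Sparc at 7216 (6548 to 7903), Fn1 at 3779 (1966 to 6126) and Postn at 2006 (1551 to 2510). Tnc followed at 1548 (760 to 1999). Tnn was lowest at 52.2 (7.20 to 93.4). In this order neighbours from Spp1 to Tnc overlapped, apart from Sparc and Fn1. The mean of Spp1 rests on the tumor of 1023. Length here is that of all annotated exons of a gene joined, such as 8702 bases for Postn and 3289 for Thbs4. It can exceed the transcript present, and the order was not checked with another length. In mouse control muscle Sparc was highest, at 3732 (1736 to 5455), followed by Thbs4 at 635 (353 to 1144), whose range did not reach that of Sparc.

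**Figure D3:**
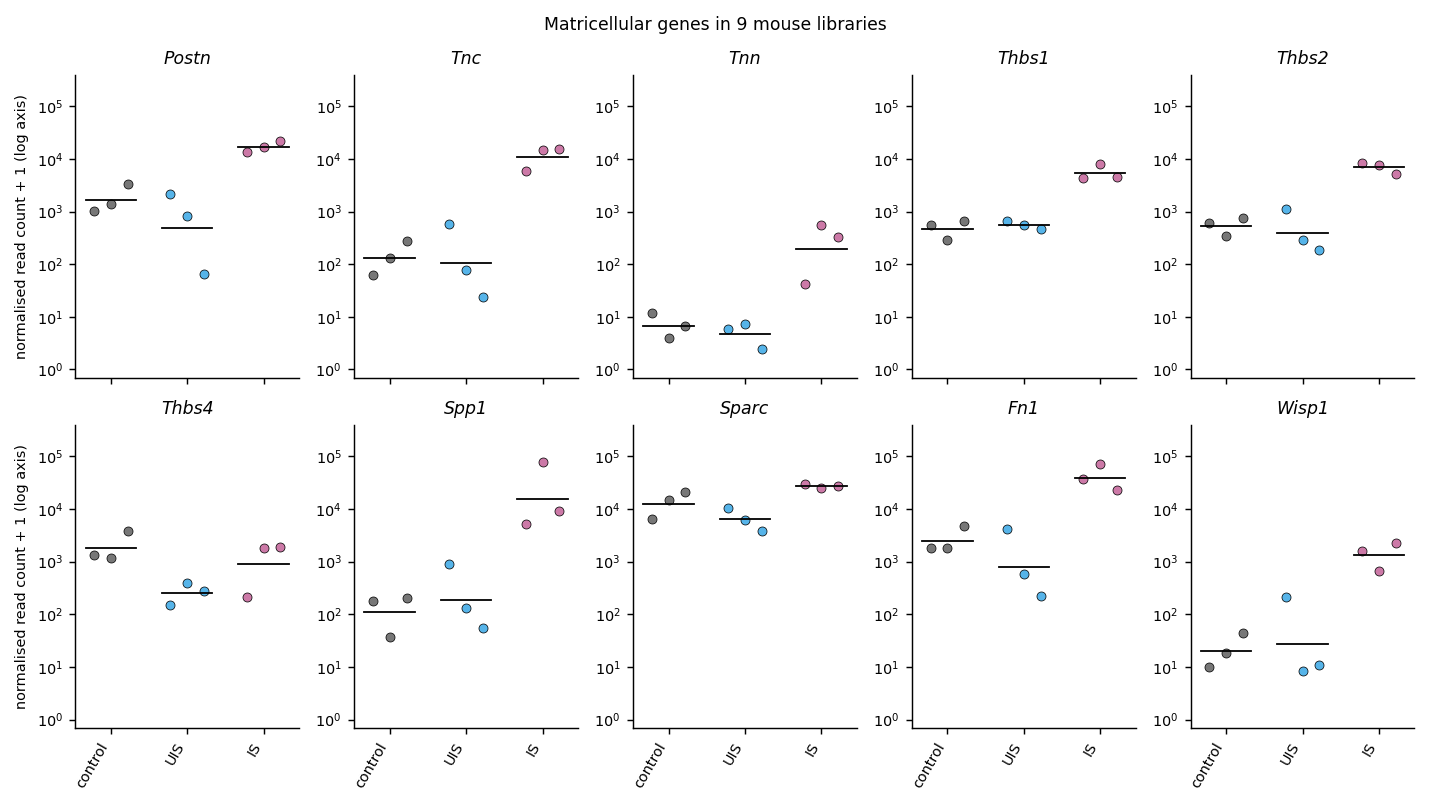
Normalised read count plus 1 (y axis, log scale) of the 10 genes in 9 mouse libraries by group (x axis). Each point is 1 library and each bar the mean of the logs. Except in Thbs4, the 3 IS points of every gene lie above the 3 UIS points, beside 31.1% of all genes tested.

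The genes nearest to Postn over the 9 mouse libraries were Camk4, Lrrc15, Enox1, Chd3os and Tuft1, with root mean square differences of 0.45 to 0.66 among 13923 genes. Fn1, at 0.77 and rank 16, was the nearest member, and Thbs4 again the farthest, at 2.44 and rank 5856. None of the 5 mouse genes was among the 5 of Spalax.

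Last, the difference between IS and UIS was compared between Spalax fibrosarcoma and mouse over shared genes, as a difference of differences within each table. Limma called 1 of the 9 members tested, beside 3.95% of 11085 genes. It was Thbs4, which was lower in both Spalax tumors than in their UIS and higher in all 3 mouse tumors than in theirs. Spalax went from 3010 and 5337 to 60.6 and 293, and mouse from 148 to 390 up to 215 to 1879, so that the differences were -4.90 and 1.86 and the Spalax difference minus that of mouse was -6.75 (SE 1.42, limma adjusted p 0.0387). With the animal as a replicate block 0.343% of genes were called and Thbs4 was still among them. In 7 of the 10 fits that left out 1 library it was not called, with adjusted p up to 0.174 and a difference between -7.88 and -5.63 over the 10 fits. These were the fits without Spalax UIS 2240, UIS 2230 or IS 2230, and without mouse UIS 1019, UIS 1023, IS 1023 or IS 512. Of 4 tendon markers tested, Tnmd was called as well (-6.45, limma adjusted p 0.0459), and the part of tendon was not tested. The mouse UIS, which serves as the base here, held less Thbs4 than mouse control.
Spp1 had the next largest gap, at -5.22 (SE 1.95, limma adjusted p 0.166), as it rose in mouse and was not called in Spalax, and Fn1 differed by -3.37 (SE 1.66, limma adjusted p 0.279). Limma called neither of them, and DESeq2 called Spp1 (adjusted p 0.0381) beside 15.4% of all genes. Thbs1 differed by 0.21 with a 95% interval from -0.98 to 1.40, and Sparc by 0.61 with an interval from -0.69 to 1.91. Age, sex, time to tumor and dose differ between the species as well and cannot be told apart from species.

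**Figure D4:**
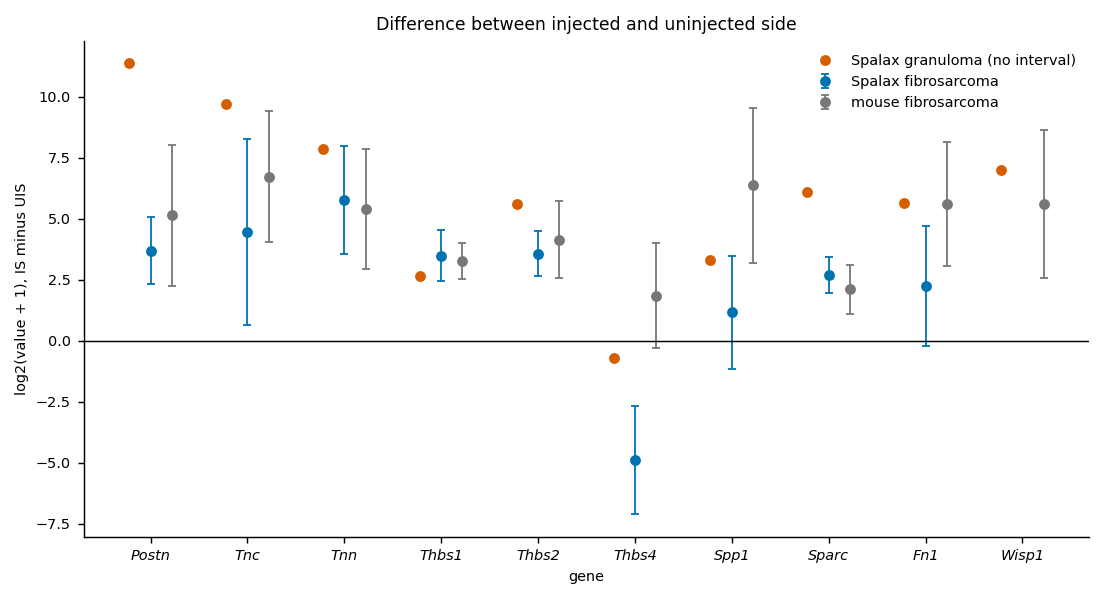
Difference in log2(value + 1) between IS and UIS (y axis) for each gene (x axis) in Spalax granuloma, Spalax fibrosarcoma and mouse fibrosarcoma. Lines are 95% intervals of the limma fit, left out for granuloma, and Wisp1 could not be fitted in Spalax fibrosarcoma. Thbs4 is the gene with a mean below 0 in both kinds of Spalax tumor, at -4.90 in fibrosarcoma, and above 0 in mouse, at 1.86. In granuloma its mean of -0.73 joins a rise in animal 600 and a fall in animal 976.

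The wider family and its partners were counted from 3 lists. Of all genes tested, limma called 17.4% higher and 19% lower in the IS of Spalax fibrosarcoma. In mouse it called 22.8% higher and 3401 of 15220 lower. Nothing about the family is read from counts that lie near these shares. Col1a1, Col1a2 and Col3a1 of the partners are also fibroblast markers, and Comp of the relatives is also a tendon marker. Of 20 further matricellular genes, 14 were tested in Spalax fibrosarcoma against UIS, 2 rose and 4 fell, with a median of -0.64. Tgfbi, a relative of Postn that binds collagen, rose by 2.68 and Wisp2, a CCN protein, by 4.68, while Sparcl1, a relative of Sparc, fell by 2.57 and Smoc2 fell by 5.07 (limma adjusted p 0.00518 to 0.0160). In mouse 14 were tested, 5 rose and 1 fell. Tgfbi rose by 3.41, Fbln1 by 2.84 and Thbs3 by 1.57, and Smoc2 fell by 3.68 (limma adjusted p 0.00276 to 0.0181).
Of 13 receptor genes, 12 were tested in Spalax fibrosarcoma, 4 rose and 1 fell. Among the integrin subunits Itga4 rose by 3.49, Itga5, part of the fibronectin receptor, by 2.31 and Itgb3, of the receptor for vitronectin and osteopontin, by 3.09, while Itgb6, an epithelial subunit, fell by 8.72 (limma adjusted p 0.00251 to 0.0186). In mouse 8 of 13 rose and 1 fell. Itga5 rose by 2.91, Itgav by 1.97 and Cd44, a receptor for hyaluronan and osteopontin, by 4.05, and the thrombospondin receptor Cd36, abundant in fat and muscle, fell by 6.27 (limma adjusted p 0.000866 to 0.00479).
Of 14 partners and inducers of the members, 5 of 13 tested rose and 1 fell in Spalax fibrosarcoma, and 10 of 14 rose in mouse. Col1a2, a chain of collagen I, rose by 4.42 in Spalax, the transcription factor Twist1 by 3.71 and the protease Bmp1, which trims procollagen, by 3.03, while Tgfb2 fell by 2.73 (limma adjusted p 0.00694 to 0.0119). In mouse Lox, which crosslinks collagen, rose by 3.12, Bmp1 by 3.23, Col12a1 by 5.03 and Col5a1 by 4.61 (limma adjusted p 0.00160 to 0.00556). The difference between species was called for 0 genes of these 3 lists by limma, beside 3.95% of all genes. Fbln1 came nearest (-3.48, limma adjusted p 0.102).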

How the data were processed

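RNA-seq of 25 libraries was analysed. The authors prepared stranded libraries, trimmed single-end reads (Trimmomatic), mapped them by TopHat2 on the Spalax or mouse genome, and counted them with htseq-count. The strand setting is not given in the sources used here. The submitters' processing notes name TopHat 1.4.1, HTSeq, DESeq and GRCm38. Each deposited value is a signal, a gene's read count divided by the size factor of its library. In every library 100% of the values were whole multiples of the value of 1 read (tolerance 0.01), so reads were recovered by division. In the Spalax table commas in 2387 gene names were read as the letter t, and values from the line end. Counts of genes with antisense or overlapping partners are uncertain: up to 3.42% of the exon bases of Tnc, Thbs1 and Fn1 lie under a gene of the other strand. Replicate libraries of a group were not copies (chi-square per degree of freedom at least 45.0).

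Groups were compared with limma 3.58.1 (lmFit, eBayes with trend, R 4.3.3) on log2(value + 1), two-sided, for genes reaching 10 in a number of libraries equal to the size of the smaller group, with Benjamini-Hochberg adjustment over all genes tested, and only the libraries compared in a fit. On that scale the changes of low genes come out too small. Alternatives were edgeR 4.0.16 (quasi-likelihood) and DESeq2 1.42.0 on recovered reads, a pseudocount of 0.1, no filter, scaling by total reads, 1 model over all libraries of a species, and leaving out each library. The test scripts were tested on simulated data.

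IS and UIS of a tumor-bearing animal are paired by the animal they came from. The correlation of their deviations from the group means was 0.00925 in granuloma, -0.00186 in Spalax fibrosarcoma and 0.125, 0.0469 and 0.178 in mouse. Replicates are separate animals. The members and the gene lists were chosen with earlier results of these data known. Named genes were the 10 members, the 4 tested genes of smallest p from each partner list in a comparison and the 5 genes nearest to Postn by root mean square difference of centred profiles. Marker levels are sums over a list. Symbols, coordinates and coding sequences of mouse come from GENCODE vM21. Plots used matplotlib 3.10.9 (Python 3.11.15).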

Additional observations from a re-analysis of the deposited data

Results flagged for a closer look

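In the tolerant group Spp1 was 23083 normalised counts in animal 2251, far above the other 3 libraries. Wisp1 lay apart in 2 pooled sets of 4 Spalax libraries: in the UIS of tumor-bearing animals it was 3.64 in fibrosarcoma 2240 and 0 in the other 3, and in the IS it was 3.00 in fibrosarcoma 2230 and 102 to 143 in the others. Each of these libraries was far from the nearest of its set in relation to the range on the log2(value + 1) scale, and chance alone sets a library apart in this way in about 1 of 20 sets, of which 40 were looked at. The Wisp1 values of 3.64 and 3.00 rest on a few reads.

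The difference between IS and UIS of Thbs4 differed between Spalax fibrosarcoma and mouse by -6.75 on the log2 scale in the limma interaction test (adjusted p 0.0387). The call depended on single libraries, as given above. Thbs4 was 215 to 1879 in mouse tumors, 148 to 390 in the mouse UIS and 1162 to 3763 in mouse control.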

How the results depend on the processing

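Of the counts of members called, those that moved by over 1.5 times were 3 under DESeq2, Postn included, in granuloma IS against fibrosarcoma IS (0 by limma), 1 under DESeq2 in mouse control against UIS (0) and 2 under DESeq2 between the species (1). With each library left out, the count ran from 0 to 0 in granuloma, a contrast from which no call is read, from 0 to 8 in Spalax fibrosarcoma and from 0 to 1 between the species. The difference of Spp1 between tolerant muscle and tumors ran from -1.89 to 1.24, the last without tolerant 2251. Scaling by total reads moved the median of all genes from 0.03 to 0.83 in Spalax fibrosarcoma and from 0.11 to 1.16 in mouse and kept the direction of each member called by limma there. With the animal as a replicate block, 7 members were called in Spalax fibrosarcoma (6 without it), beside 33.2% of all genes, 10 in mouse (9), beside 44.1%, and 1 between the species (1), where the genes called fell from 438 to 38. Beside Tnc in Spalax fibrosarcoma and Thbs4 in mouse, the pairing changed no call of a member. A value of 10 rests on 6.95 to 19.3 reads, so Wisp1 and Tnn in muscle are limited by depth.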
